A study of Mus musculus with 22 samples.

Results

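The genes that flank Chsy1 on mouse chromosome 7 were compared between forelimbs of wild-type and Chsy1 knockout embryos. Members were the non-control array probes with a gene name whose mm8 coordinates lie on chromosome 7 between 61000000 and 71000000, without the probes of Chsy1, Aldh1a3 and Igf1r. This rule used position alone and no measured value. It found 65 gene or transcript names on 98 probes, of 27290 names and 41174 probes on the array, with 52 on the proximal side (towards the centromere, lower coordinates) and 46 on the distal side. Distance was counted from position 66052663, the start of the array's Chsy1 probe. Forelimbs were taken at embryonic day 13.5, and the Cy5-labelled RNA of each sample was hybridised with the Cy3-labelled Universal mouse reference, so a level below is always the log2 ratio of Cy5 over Cy3. The 9 wild-type and the 13 Chsy-1 knockout samples are all labelled strain 129. How the allele was made, whether the knockouts were bred to another strain, and whether a sample is 1 embryo or a pool are not given in the sources used here. Should samples share embryos or extracts, the spread behind each p-value would be technical.

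Chsy1 encodes chondroitin sulfate synthase 1, which extends the chondroitin sulfate chains of proteoglycans. An inserted or deleted allele can act on genes beside it, through a shared regulatory element, read-through transcription or a changed chromatin domain, and a congenic interval can carry linked variants of the strain in which the allele was made. The comparison addresses whether the measured neighbours of Chsy1 differed between the genotypes, and whether any difference depended on distance. The interval begins in the Ndn, Magel2, Mkrn3 and Peg12 cluster, imprinted genes expressed from the paternal chromosome, and ends beside Nr2f2, which encodes the orphan nuclear receptor COUP-TFII. Between them lie genes of broad function, among them Pcsk6, a proprotein convertase, and Mef2a, a transcription factor of muscle.

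The start regions of Chsy1 and of the nearest currently named members measured on either side, Selenos and Lrrk1, are shown. These 2 genes were taken by the distance of their probes from the Chsy1 probe, not by the distance of their starts. Each runs from 250 bases before to 50 bases after the gene's start, 5′ to 3′ on the gene's own strand, from RefSeq on GRCm38.p6, a different build from the probe coordinates. Capitals mark CG pairs, the sites of DNA methylation.
Selenos: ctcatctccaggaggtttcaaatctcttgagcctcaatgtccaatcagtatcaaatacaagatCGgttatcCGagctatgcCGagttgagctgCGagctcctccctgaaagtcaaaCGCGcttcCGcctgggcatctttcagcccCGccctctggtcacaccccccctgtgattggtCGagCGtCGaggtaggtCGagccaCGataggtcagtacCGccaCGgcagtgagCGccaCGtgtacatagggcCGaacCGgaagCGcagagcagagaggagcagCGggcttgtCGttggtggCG
Chsy1: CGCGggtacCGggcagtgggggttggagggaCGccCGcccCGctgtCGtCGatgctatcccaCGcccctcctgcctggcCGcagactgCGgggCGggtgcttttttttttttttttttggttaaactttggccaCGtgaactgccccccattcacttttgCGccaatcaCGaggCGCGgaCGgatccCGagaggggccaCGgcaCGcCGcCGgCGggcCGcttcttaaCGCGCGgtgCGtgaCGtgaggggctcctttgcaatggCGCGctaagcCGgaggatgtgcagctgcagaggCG
Lrrk1: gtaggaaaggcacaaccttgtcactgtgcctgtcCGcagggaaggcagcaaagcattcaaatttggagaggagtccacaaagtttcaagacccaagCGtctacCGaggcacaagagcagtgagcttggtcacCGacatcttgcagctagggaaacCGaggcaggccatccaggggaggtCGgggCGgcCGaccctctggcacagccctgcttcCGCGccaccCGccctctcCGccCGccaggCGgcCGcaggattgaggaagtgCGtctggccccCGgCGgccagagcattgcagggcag
The Selenos region is chr7:66079399-66079698 on the plus strand, that of Chsy1 chr7:66109242-66109541 on the plus strand, and that of Lrrk1 chr7:66388292-66388591 on the minus strand. They held 23, 34 and 18 CG pairs in this order, and of the 32851 promoters of 300 bases in the same table, 21.5%, 7.73% and 29.7% held at least as many. None of the 3 held TATAAA on either strand, which 13.6% of all promoters did. CG and TATAAA share no bases, so matches of the 2 cannot overlap. Promoters were found for 31 of the 38 tested names, with a median of 17 CG pairs against 7 over all promoters. The 2 sets are unlike, because tested names had passed a filter on signal in these samples and the other promoters had not. These letter counts are descriptions, and no methylation or binding was measured.

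On each array 27214 to 30599 of the 43379 non-control spots were well above background in Cy5. The median Cy5 signal was 102.8 to 178.9 units on the wild-type arrays (median 138.3) and 138.2 to 175.1 on the knockout arrays (median 157.2), against a background of 54 to 57. The log ratios of any 2 arrays correlated at 0.873 to 0.992. The targeted gene separated the genotypes. Its log2 ratio was 1.28 at the lowest, 1.79 at the median and 2.02 at the highest in wild type, and -5.12, -4.73 and 0.15 in the knockouts (difference -6.11, SE 0.44, limma adjusted p = 1.75e-08). The array labelled knockout 1 held that highest value, 33.6% of the wild-type mean, against 0.869% to 1.82% in the other 12. Of the limb markers, Tbx5, which specifies the forelimb, was at 4.61 times the reference in wild type by 1 of its 2 probes. The hindlimb genes were also above background on all 22 arrays, Pitx1 at 49.7 times the reference and Tbx4 at 1.53 and 1.52 times. Pitx1 was bright, with raw Cy5 signals of 27170 to 85995 units. The Tbx4 probes were dim, at 78 to 174 and 89 to 217 units. On the slides, position 1 held only wild-type arrays (6) and positions 3 and 4 only knockout arrays (6 and 4), while position 2 held 3 of each, so genotype and position were largely tied.

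No flanking gene passed the test. Of the 98 probes, 61 (38 names) had a Cy5 signal well above background on at least 9 arrays and were tested, 55 of them above background on all 22. None of the 61 passed an adjusted p of 0.05 in limma, where the share over all 27803 tested probes was 0.0144% (4 probes, all lower in the knockout, Chsy1 among them). The smallest adjusted p was 0.964. An unadjusted p under 0.05 was reached by 2 of the 61 (3.28%), against 4.79% of all tested probes. For none of the 61 did the values of the genotypes separate without overlap, which happened for 0.0036% of all tested probes, a single probe, that of Chsy1.

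The 95% interval of the difference lay within a 1.5-fold change in either direction for 60 of the 61 probes (98.4%, against 96.8% of all tested probes). The exception was a probe of Lrrk1. The median standard error of a difference was 0.079 on the log2 scale. These intervals take no account of the position on the slide. With position as a block 46 of the 61 lay within a 1.5-fold change and the median standard error was 0.15. Only position 2 held both genotypes, 3 arrays of each, so every difference with this block rests on those arrays. The difference was smaller than 1 SD of the wild-type values for 59 of the 61 probes (96.7%, against 98.0% of all).

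The flanking probes were divided evenly about 0. Of the 61, 30 were higher and 31 lower in the knockout, with a median log2 difference of -0.0022, beside -0.0037 over all tested probes and -0.0030 over the 1957 tested probes on the rest of chromosome 7. The median size of a difference, taken without its sign, was 0.042 for the flanking probes, 0.055 for the rest of the chromosome and 0.057 for all tested probes. A size over 0.2 was reached by 2 flanking probes (3.28%), against 7.56% of the rest of the chromosome and 6.52% of all. The log2 ratios of each array were also taken as deviations from each probe's wild-type mean. The median deviation over the flanking probes ran from -0.088 to 0.079 on wild-type arrays and from -0.020 to 0.047 on knockout arrays. The knockout arrays thus lay within the wild-type range, with the wild-type arrays themselves part of that mean.

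**Figure D1:**
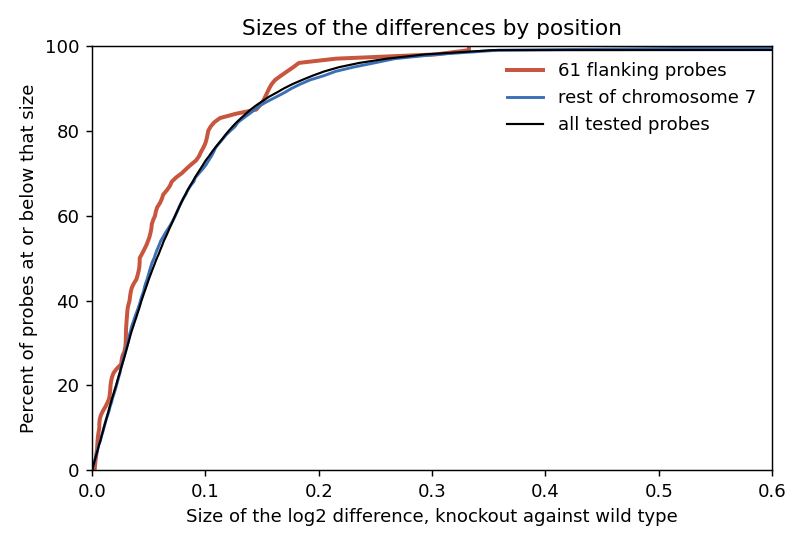
Cumulative percentage of probes (vertical axis) against the size of the log2 difference between knockout and wild type (horizontal axis), for the 61 flanking probes, the 1957 tested probes on the rest of chromosome 7 and all 27803 tested probes. The axis is drawn to 0.6, and larger differences lie off it. The curve of the flanking probes lies at or left of the others over most of its range, with a median of 0.042 against 0.055 and 0.057.

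Differences were then read by distance. Within 0.5 Mb of the Chsy1 probe, 14 probes of 9 names were tested, 7 higher and 7 lower, with a median of -0.0027 and differences from -0.33 to 0.19. From 0.5 to 1 Mb there were 5 probes (median 0.033), from 1 to 2 Mb 25 probes (median -0.0022), from 2 to 3 Mb 6 probes (median -0.027) and from 3 to 5 Mb 11 probes (median -0.0044). The median size in these 5 bins, from near to far, was 0.049, 0.041, 0.042, 0.061 and 0.042, with no order by distance. Across the 61 probes the size of the difference and the distance had a Pearson correlation of -0.15 and a Spearman correlation of -0.065. On the proximal side alone they were 0.0024 and 0.062 (32 probes), and on the distal side -0.24 and -0.11 (29 probes). Probes share the 22 arrays, and several share a gene, so these correlations only describe the interval.

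The sides differed in how the signs fell. On the proximal side 21 of 32 tested probes were higher in the knockout and 11 lower, with a median of 0.021, and no probe exceeded a size of 0.2. On the distal side 9 of 29 were higher and 20 lower, with a median of -0.029, and both probes over 0.2 lay there. Beyond 2 Mb on the distal side all 8 tested member probes were lower, between -0.11 and -0.0035, none with an unadjusted p under 0.05. They belonged to 2 names from 2 to 3 Mb and 3 names from 3 to 5 Mb. The probes of Igf1r, left out by the rule, lay 2.01 to 2.05 Mb away on this side. They differed by -0.13, 0.12, -0.069 and -0.11, so the common sign held for members only. No test of the sides was made.

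**Figure D2:**
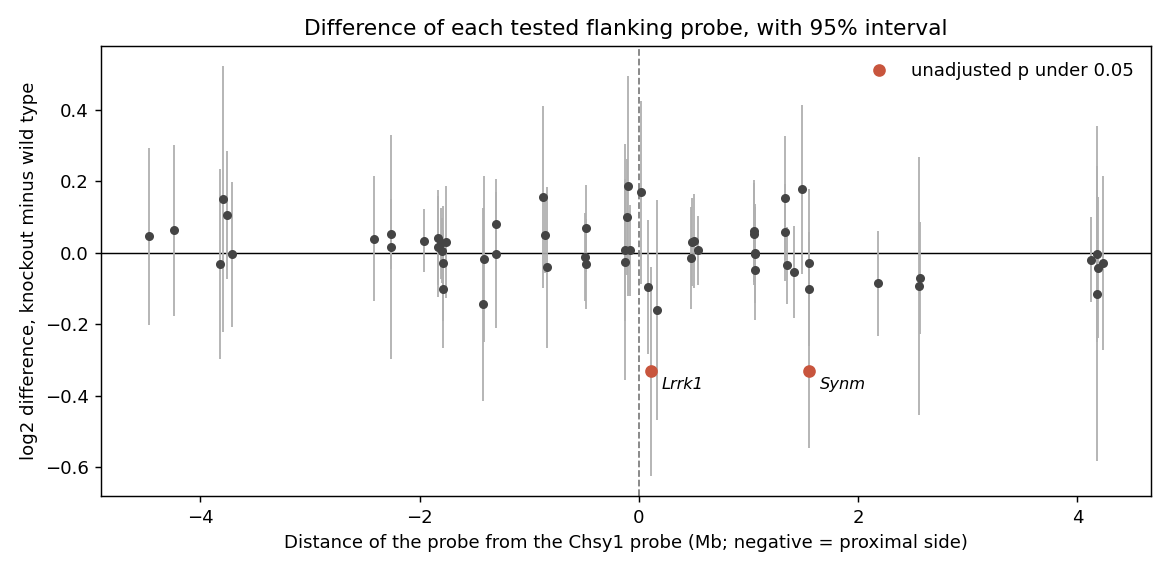
Log2 difference, knockout minus wild type, of each of the 61 tested flanking probes (vertical axis) by its distance from the Chsy1 probe in Mb (horizontal axis, dashed line at Chsy1). Bars are 95% intervals from limma, and Chsy1 itself, at -6.11, is not drawn. The 2 probes with an unadjusted p under 0.05, of Lrrk1 and Synm, both lie on the distal side at -0.33.

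The nearest neighbours on the proximal side overlapped between the genotypes. The closest member, an unnamed transcript cluster (TC1685454) 43.6 kb away, was well above background on 0 of the 22 arrays. No mm8 annotation was used here, and whether this probe belongs to a neighbour or to the Chsy1 transcript itself was not tested. Selenos, a selenoprotein of endoplasmic reticulum protein quality control, was the closest measured gene, with a probe at chr7:65967823-65967882 on mm8, 84.8 kb from the Chsy1 probe. Its log2 ratio was -0.38 at the lowest, -0.17 at the median and 0.066 at the highest in wild type, and -0.40, -0.18 and 0.010 in the knockouts. The difference was 0.0063 (SE 0.061, 95% interval -0.12 to 0.13), so a change of Selenos beyond that interval was not seen.

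Snrpa1, which encodes a protein of the U2 small nuclear ribonucleoprotein, lay 104 kb away. It ran from -0.047 through 0.44 to 0.55 in wild type and from -0.077 through 0.50 to 0.67 in the knockouts, a difference of 0.099 (SE 0.079, adjusted p = 0.964). A cDNA beside it, AK032921, had the highest difference of all flanking probes, 0.19 (SE 0.15, adjusted p = 0.964). Its values spread widely, from -1.38 through -0.69 to 0.079 in wild type and from -1.08 through -0.40 to 0.029 in the knockouts. The difference was 0.091 without wild-type 2, and -0.37 with position as a block, which rests on the arrays of position 2.

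Pcsk6, a convertase that cleaves precursors of growth factors of the TGF-beta family and is known from left-right patterning, was measured by 2 probes 123 and 126 kb away. By its brighter probe it was above the reference, from 0.42 through 1.24 to 1.66 in wild type and from 0.40 through 1.21 to 1.59 in the knockouts. The 2 probes differed between genotypes by -0.026 (SE 0.16) and 0.0081 (SE 0.096). Tm2d3, a membrane protein gene 478 kb away, differed by -0.031 (SE 0.061). Tarsl2, a threonyl-tRNA synthetase, was below the reference at -1.18 ± 0.15 (SD, n = 9) for wild type, against -1.12 ± 0.11 (SD, n = 13) for the knockouts, and its 2 probes differed by 0.068 (SE 0.059) and -0.012 (SE 0.060). None of these genes separated the genotypes.

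On the distal side the closest member was NAP114798-1, a probe with no gene name beyond its design label, 17.2 kb from the Chsy1 probe. Whether it reads a separate transcript or part of Chsy1 was likewise not tested. It was among the brightest members, with raw Cy5 signals up to 40362 units. Its log2 ratio was 0.45 at the lowest, 1.15 at the median and 1.43 at the highest in wild type, and 0.38, 1.38 and 1.53 in the knockouts. The difference was 0.17 (SE 0.12, adjusted p = 0.964), with 11 of 13 knockouts above the wild-type median and the ranges overlapping almost wholly. It was 0.084 without wild-type 3 and 0.24 without knockout 5, the lowest array of each genotype. In the same samples the Chsy1 probe fell by 6.11 on the log2 scale.

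Lrrk1, a kinase with leucine-rich repeats known from bone resorption by osteoclasts, was the nearest named distal gene measured, and its 3 probes all gave lower means in the knockout. The brightest probe, 168 kb away, was far below the reference, from -3.44 through -2.72 to -2.22 in wild type and from -3.36 through -2.87 to -2.20 in the knockouts. Its difference was -0.16 (SE 0.15). The probe 112 kb away, at chr7:66164199-66164258, ran from -1.50 through -1.30 to -0.40 in wild type and from -1.71 through -1.53 to -0.49 in the knockouts. Of the 13 knockouts 12 lay below the wild-type median, and knockout 5, at -0.49, was above all but 1 wild-type array. The difference of this probe was -0.33 (SE 0.14, 95% interval -0.62 to -0.040), with an unadjusted limma p of 0.027 and an adjusted p of 0.964. The third probe, 85.1 kb away, gave -0.096 (SE 0.091). The differences of the 3 probes thus spanned 0.24, with intervals that overlap.

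The Lrrk1 probe at 112 kb was lower in the knockout on 5 of the 6 slides, with values from -0.83 to 0.14, and by 0.20 among the arrays of position 2. Leaving out both arrays numbered 1, knockout 1 and wild-type 1, gave -0.27 with an unadjusted limma p of 0.080. The probe was lower in the knockout in each of the 36 alternatives that could be computed for it. The alternatives reuse the same arrays, and 22 of them leave out 1 array each, so their common sign is not independent support. The brightest Lrrk1 probe was lower in all but 1 of 37, and was 0.16 under median centring, where the median of all probes was itself 0.21.

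**Figure D3:**
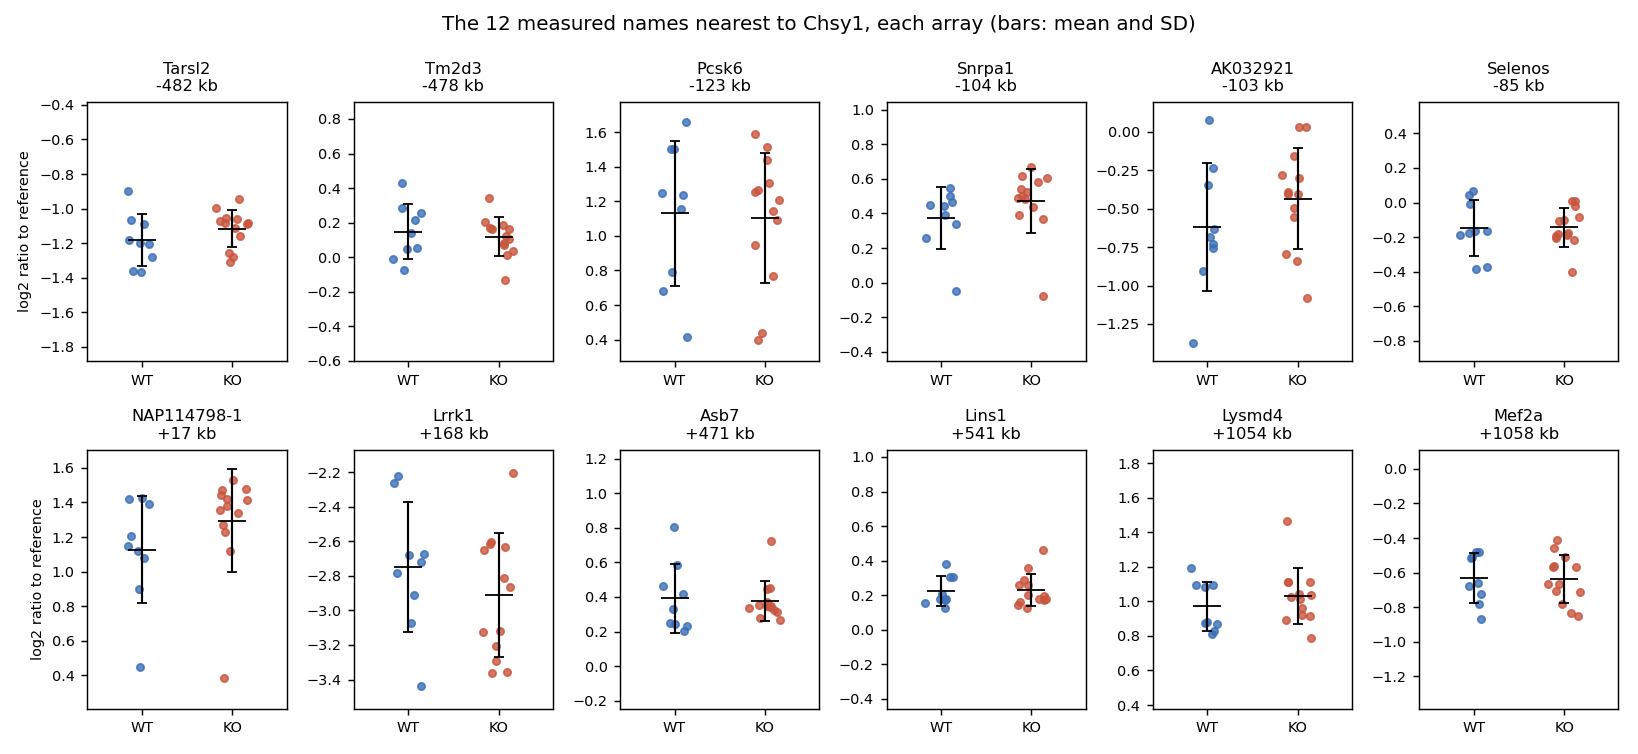
Log2 ratio to the reference (vertical axes) on every array for the brightest probe of each of the 12 tested names nearest to Chsy1, proximal names in the upper row and distal names in the lower, with the distance from the Chsy1 probe in kb. Blue points are the 9 wild-type (WT) and red points the 13 knockout (KO) arrays, and bars are the mean and SD. In each of the 12 panels the genotypes overlap.

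Further genes on the distal side were closely matched. Asb7, which encodes a substrate adaptor of a cullin ubiquitin ligase, was 471 kb away and differed by -0.015, 0.030 and 0.033 over 3 probes, with standard errors of 0.060 to 0.069. Lins1 differed by 0.0063 (SE 0.047), the narrowest distal interval among named genes, -0.090 to 0.10. Lysmd4, a LysM domain protein gene, differed by 0.053 and 0.061 on its 2 tested probes, neither past the test. The other Lysmd4 probe was above background on 1 array, a knockout, and was left out of the test. Mef2a, 1.06 Mb away, was below the reference at -0.63 ± 0.14 (SD, n = 9) for wild type, against -0.64 ± 0.14 (SD, n = 13) for the knockouts, and its 3 probes differed by -0.048 to -0.0022. The 95% intervals of the 3 Mef2a probes lay between -0.19 and 0.14 on the log2 scale.

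Synm, 1.55 Mb from Chsy1, had the smallest p of all flanking probes. It encodes synemin, an intermediate filament protein that links desmin filaments to the membrane in muscle. By the probe at chr7:67606261-67606320 its log2 ratio was -1.61 at the lowest, -1.14 at the median and -0.74 at the highest in wild type, and -2.03, -1.42 and -1.18 in the knockouts. All 13 knockouts lay below the wild-type median, but the ranges overlapped. The difference was -0.33 (SE 0.10, 95% interval -0.55 to -0.12), 1.26-fold lower, with an unadjusted limma p of 0.0038 and an adjusted p of 0.964. The other Synm probe, 1551 kb from Chsy1, differed by -0.10 (SE 0.077, 95% interval -0.26 to 0.057), with values from -0.77 through -0.48 to -0.11 in wild type and from -0.83 through -0.61 to -0.21 in the knockouts.

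The brighter Synm probe was lower in the knockout on 6 of 6 slides, by 0.11 to 0.50. It was also lower in every one of 37 alternatives, which reuse the same arrays and are not independent. Its adjusted limma p was never below 0.254 there (without wild-type 8). It was -0.18 among the arrays of position 2 and -0.26 without both arrays numbered 1. Markers of skeletal muscle moved in part with it: Acta1 differed by -0.29 (95% interval -0.57 to -0.0075), Myog by -0.13 and Myod1 by 0.076, none past the adjusted threshold. On other marker lists, Nefm (neurons, 0.46), Prrx2 (limb mesenchyme, 0.30) and Pitx1 (hindlimb, -0.18) also had an unadjusted limma p under 0.05. These were 0.019, 0.0032 and 0.049, again none past the adjusted threshold. Each came from a list of mixed sign. Of the tested probes, 1 of 3 for neurons, 8 of 14 for limb mesenchyme and 2 of 3 for hindlimb were higher. Tubb3 and Stmn2 differed by -0.089 and -0.092, and Tbx4 by 0.069 and 0.11 over 2 probes. The 3 muscle markers were above background on all 22 arrays, at 2.52, 3.79 and 2.98 on the log2 ratio scale in wild type. Their part in the Synm result was not tested, and in bulk RNA fewer muscle cells and less RNA per cell cannot be told apart.

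**Figure D4:**
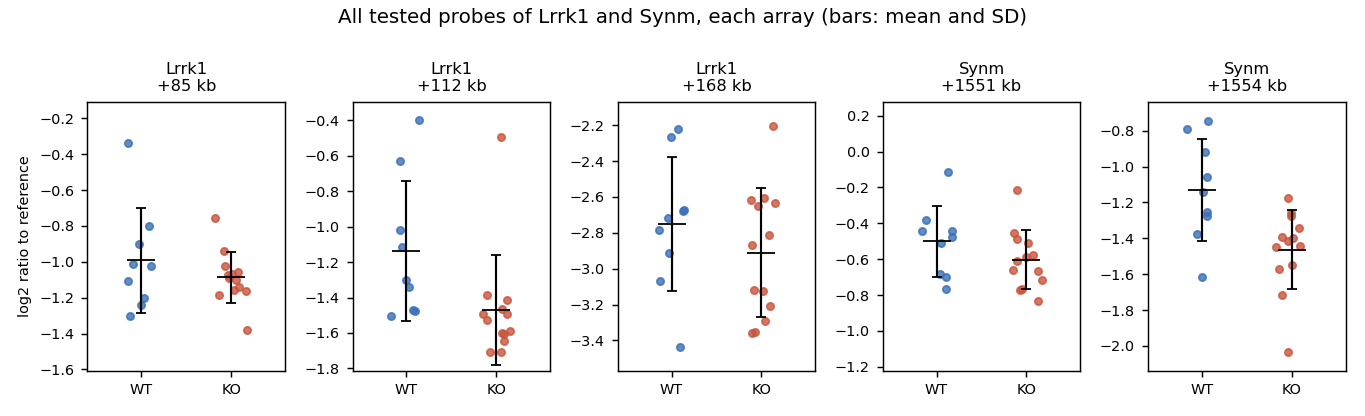
Log2 ratio to the reference (vertical axes) on every array for all 3 tested probes of Lrrk1 and both of Synm, with the distance from the Chsy1 probe in kb. Blue points are wild-type (WT, 9) and red points knockout (KO, 13) arrays, with mean and SD as bars. The probes at 112 and 1554 kb have a difference of -0.33 and the other 3 a difference of -0.16 to -0.096, and the genotypes overlap in each panel.

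The tested genes next to Synm on its Chsy1 side did not all lie below 0. Ttc23, a gene of the primary cilium that lies beside Synm in the gene order, was high at 1.95 ± 0.24 (SD, n = 9) for wild type, against 1.92 ± 0.24 (SD, n = 13) for the knockouts by its brighter probe, and its 2 probes differed by -0.030 (SE 0.10) and 0.18 (SE 0.11). Lrrc28, with 4 probes, differed by 0.057, 0.15, -0.035 and -0.056. Its probe at 0.15 (SE 0.084) had an unadjusted p of 0.081. These neighbours on the Chsy1 side therefore gave values on both sides of 0, none past the test. Beyond Synm, the 3 tested member probes from 2 to 3 Mb, of Fam169b and Arrdc4, were all lower, from -0.093 to -0.071. None of these passed the test either.

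Of the imprinted genes at the proximal end, Ndn, Magel2 and Peg12 were the members highest over the reference. Ndn, which encodes the MAGE protein necdin, ran from 2.68 through 3.42 to 3.58 in wild type and from 2.30 through 3.28 to 3.43 in the knockouts, 9.32 times the reference in wild type. Its difference was -0.031 (SE 0.13, 95% interval -0.30 to 0.23). Peg12, a gene of the Frat family of Wnt signalling, ran from 1.79 through 2.33 to 2.62 in wild type and from 2.02 through 2.22 to 2.77 in the knockouts, a difference of -0.0044 (SE 0.098). Both were far above the reference in either genotype, and the genotypes differed by less than a standard error.

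Magel2, a MAGE gene whose protein regulates a ubiquitin ligase, ran from 1.08 through 2.83 to 3.09 in wild type and from 2.12 through 2.79 to 3.25 in the knockouts. Its difference of 0.15 (SE 0.18) turned to -0.046 without wild-type 1, the array at 1.08. Mkrn3, a makorin RING finger gene, ran from 0.25 through 0.49 to 0.95 in wild type and from 0.51 through 0.62 to 0.93 in the knockouts. All 13 knockouts lay above the wild-type median, while the mean difference was 0.11 (SE 0.087, adjusted p = 0.964) and the knockout range lay inside that of wild type. It was -0.11 with position as a block. Nsmce3, a MAGE family member of the SMC5/6 complex and not part of the imprinted cluster, lay 1301 kb from Chsy1 and differed by -0.0027 (SE 0.10) by its brighter probe and 0.079 (SE 0.043) by the other. Of the 6 tested probes in this group 3 were higher, 3 lower and none passed the test.

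**Figure D5:**
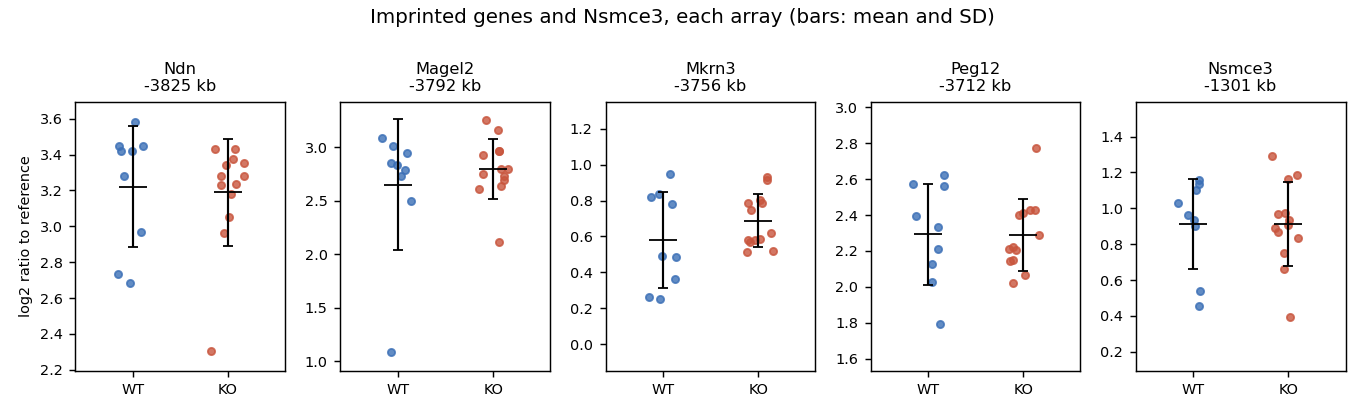
Log2 ratio to the reference (vertical axes) on every array for the 4 imprinted genes of the proximal cluster and the MAGE gene Nsmce3, brightest probe of each, with the distance from the Chsy1 probe in kb. Blue points are wild-type (WT, 9) and red points knockout (KO, 13) arrays, with mean and SD as bars. Wild-type 1 stands at 1.08 for Magel2, below the other 8, of which the highest is 3.09.

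The transcription regulators of the interval were Mef2a, Klf13 and Nr2f2. Their 8 tested probes (2 higher, 6 lower, none past the test) had a median difference of -0.0041. Nr2f2, 4.17 Mb away and known for its part in mesenchyme and vessels, ran from 0.013 through 0.31 to 0.98 in wild type and from -0.030 through 0.47 to 0.98 in the knockouts by its brightest probe. Its 3 probes differed by -0.0035 (SE 0.12), -0.042 (SE 0.096) and -0.11 (SE 0.23). The last probe varied most within the genotypes, from -0.60 to 1.52 in wild type, with an interval of -0.58 to 0.35. Klf13, a zinc finger factor, was below the reference, from -1.99 through -1.04 to -0.41 in wild type and from -1.74 through -0.99 to -0.50 in the knockouts, a difference of 0.016 (SE 0.15) that was -0.11 without wild-type 6.

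Genes for RNA handling and translation gave 3 higher and 3 lower of 6 tested probes. Besides Snrpa1 and Tarsl2 this list held Mphosph10, of the small subunit processome, whose 3 probes differed by 0.0052 (SE 0.044), -0.030 and -0.10 (SE 0.080). The first of these, the brightest, had the narrow interval -0.086 to 0.096.

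Among genes for junctions, scaffolds and the cytoskeleton, 2 of 6 tested probes were higher and 4 lower, Synm included. Tjp1, which encodes the tight junction protein ZO-1, ran from -0.71 through -0.38 to 0.057 in wild type and from -0.59 through -0.26 to 0.55 in the knockouts, a difference of 0.16 (SE 0.12, adjusted p = 0.964), and 0.051 (SE 0.052) by its other probe. Without knockout 12 the difference of 0.16 was 0.095. Apba2, a neuronal adaptor that binds the amyloid precursor protein, ran from 0.25 through 1.19 to 1.47 in wild type and from 0.28 through 0.91 to 1.43 in the knockouts. Although 12 of 13 knockouts lay below the wild-type median of Apba2, its mean difference was -0.14 (SE 0.13, adjusted p = 0.964). Without wild-type 1 it was -0.25 (unadjusted limma p = 0.037), while the deposited log ratio gave -0.60 (unadjusted limma p = 0.048). Both had an adjusted p of 0.998 or more. Fam189a1, its neighbour, differed by -0.017 (SE 0.11).

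The ubiquitin, adaptor and DNA repair genes were level, with 4 of 7 tested probes higher, 3 lower and a median of 0.026. Otud7a, a deubiquitinase gene, differed by 0.039 (SE 0.084) and Fan1, a nuclease of DNA crosslink repair, by 0.026 (SE 0.048). Arrdc4, an arrestin-domain gene 2.56 Mb away, differed by -0.093 (SE 0.17) and -0.071 (SE 0.076). Its 2 probes read very different levels, 0.995 and -1.07 on the log2 ratio scale in the knockouts.

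Of the list for metabolism and the endoplasmic reticulum, which also held Lins1 and Ttc23, 8 of 9 tested probes were higher and 1 lower, with a median of 0.030 and a range of -0.030 to 0.18, none past the test and none with an unadjusted p under 0.05. Mcee, of propionyl-CoA catabolism, differed by 0.030 (SE 0.076) and Mtmr10, a myotubularin-related gene, by 0.042 (SE 0.064) and 0.016 (SE 0.069). Fam169b, which belongs to no list, differed by -0.086 (SE 0.071).

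Chrna7, a nicotinic receptor subunit, and Trpm1, a channel of retina and pigment cells, had 2 probes each, none of them tested: Chrna7 was above background on 1 array of each genotype by 1 probe and Trpm1 on no array. They belonged to the 37 untested members, of which 26 were above background on no array and 11 on 1 to 8 arrays. Most of the 37 carried clone or accession names. No untested probe reached a raw Cy5 signal above 106 units, against a background of 54 to 57. When the filter on dim probes was dropped, none of the 37 passed the adjusted threshold in limma (smallest adjusted p 0.953) and 2 had an unadjusted p under 0.05. One was the dim Lysmd4 probe, at -0.065 ± 0.094 (SD, n = 9) for wild type against 0.098 ± 0.085 (SD, n = 13) for the knockouts. Its difference was 0.16 (unadjusted limma p = 0.00063, adjusted p = 0.953). The other was A230057D06Rik, which was above background on 0 arrays and differed by 0.091 (unadjusted limma p = 0.014).

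Where a name had several tested probes, these gave a second reading of the same gene. Of 16 such names, 9 had all probes on the same side of 0, and the spread among the probes of a gene ran from 0.0079 in Lysmd4 to 0.24 in Lrrk1. With 1 probe per gene, the brightest, 20 of 38 names were higher and 18 lower, with a median of 0.0058. The gene order of the probes on mm8 was that of the reference on GRCm38.p6 for 29 of 29 neighbouring pairs of names. From Ndn to Nr2f2 that reference lists 39 protein-coding genes with an official name, of which 33 had a member probe and 30 a tested one, 3 were the genes left out by the rule, and A26c2, Cers3 and Adamts17 had no member probe.

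The genes left out of the membership gave values of the same order. Aldh1a3 differed by 0.23 (SE 0.19) and 0.037 (SE 0.058) over its 2 probes, and Igf1r by -0.13, 0.12, -0.069 and -0.11 over 4, with standard errors of 0.12 to 0.17. None passed the test, and Chsy1 was the only probe of the interval that did.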

How the data were processed

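Gene expression was measured on 22 Agilent 2-colour arrays (9 wild type, 13 Chsy1 knockout), in the groups of the labels. The scanner software was Agilent Feature Extraction, version 9.5.3.1 per the file headers and 9.5 per the submitters' processing notes. The deposited mean spot and background values are raw intensities per the file headers. The deposited ratio is the log10 of processed Cy5 over Cy3 per the file headers, and the authors' value table held the same log10 ratios, with a difference of 0 and column medians of 0. The deposited flags (outlier, saturation, well above background) are 0 or 1.

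From these, intensities were corrected with normexp (offset 50) and loess-normalised within arrays, with control and outlier spots at weight 0, and spots of a probe were averaged. No non-control spot was saturated. Knockout minus wild type was fitted with limma 3.58.1 in R 4.3.3 on all 22 arrays without covariates, with Benjamini-Hochberg adjustment over 27803 tested probes (Cy5 above background on at least 9 arrays) at 0.05. Precision is limited by the number of arrays. The fit was also run on simulated data with independent noise for each probe and array. That run held no effect of position, slide or single arrays, so it does not bear on them.

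Probe coordinates are on mm8 per the file headers, and no mm8 annotation was used, so exons and introns are not stated. Names came from the probe's accession through a GRCm38.p6 table (42 of 98 members), a current (24) or older (6) symbol, or stayed as designed (26). A probe in the window whose name was its own identifier was left out (1). The members and lists were chosen with earlier results of these data known. Named were the 6 nearest tested genes on each side, the 6 with the smallest p in each direction, members past the threshold and role-list members, each led by its brightest probe. Alternatives covered background, normalisation, filter, blocks for slide, position and replicate number, the variance model and leaving out each array. Sequence was read from RefSeq promoters. No column was without a sample (0).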

Additional observations from a re-analysis of the deposited data

Results flagged for a closer look

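Over the named flanking probes and Chsy1, the wild-type group of 9 was searched for an array standing far from the rest (33 groups of values). In 4 of them the gap to the nearest array, as a share of the whole range, exceeded Dixon's 95% critical value, and chance gives about 1 in 20. Magel2 was 1.08 in wild-type 1, with the other 8 reaching 3.09. Fam189a1 was 0.18 in the same array, with the others at 0.67 to 1.14. Over all tested probes, the median size of a deviation from the wild-type mean was 0.19 on wild-type 1, the highest of the 22 arrays. Over the flanking probes it was 0.23, again the highest, so this array stood apart beyond these 2 genes. Some of its values lay nearer 0 than the other wild-type arrays, on either side of 0. Apba2 was 0.25 (others 0.84 to 1.47) and the dimmer Synm probe -0.11 (others -0.77 to -0.38). The Lrrk1 probe at 85.1 kb was -0.34 (others -1.30 to -0.80), while Klf13, at -1.08, lay among the others. Without this array the Lrrk1 and Synm differences of -0.33 were -0.27 and -0.28. Klf13 was -1.99 in wild-type 6, with the others at -1.13 to -0.41, and Snrpa1 was -0.047 in wild-type 3, with the others at 0.26 to 0.55. Knockout 5 was likewise low for Snrpa1, at -0.077. Wild-type 3 and knockout 5 also stood together for NAP114798-1 (0.45 and 0.38) and the Lrrk1 probe at 112 kb (-0.40 and -0.49). Without the wild-type array concerned the log2 difference was -0.046 for Magel2, -0.098 for Fam189a1, -0.11 for Klf13 and 0.047 for Snrpa1, none past the adjusted threshold. Without knockout 5 instead, that of Snrpa1 was 0.15, and a fit without both arrays was not run. Groups of 13 were not searched.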

How the results depend on the processing

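No flanking probe passed the adjusted threshold in limma under any alternative run, and the number with an unadjusted p under 0.05 ran from 0 (position as a block) to 17 (median centring). With median centring instead of loess the median was 0.21 over all tested probes and 0.18 over the flanking probes, which is -0.038 relative to all. Among the 6 arrays of position 2, chosen after seeing the data, the Chsy1 difference was -4.66 with an adjusted p of 1.00 (unadjusted 0.0033), where 1 of the 3 knockouts is knockout 1. Leaving out each of the 22 arrays in turn gave 0 calls throughout, 1 to 5 unadjusted p-values under 0.05, a flanking median of -0.0045 to 0.017 and a Chsy1 difference of -6.49 to -6.05. The number of calls over all tested probes, 4, ran from 0 (position 2 alone) to 9 (without wild-type 8) and was 1 with a slide block, a position block, median centring or the deposited log ratio. The replicate numbers 1 to 9 did not pair the samples: deviations of same-numbered arrays correlated at -0.28 to 0.50, over 0.1 for 3 of 9, and 2 of 9 arrays correlated best with their own number. With the replicate block the 18 arrays numbered 1 to 9 gave 0 flanking calls, a median of 0.017 and a Chsy1 difference of -5.90, with 1 unadjusted p under 0.05 against 2 without the block. Of 32 named probes, 12 changed sign under median centring and 0 to 6 under each alternative other than those of position. With position as a block or with position 2 alone 9 did, and these 2 settings give the same differences. Relative to the median of all tested probes under the same setting, the count was 10 under median centring. It was 12 with position as a block or with position 2 alone, and 0 to 7 under the others. Depth was limited by signal over background: 37 members gave no tested value.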

Other observations

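Genes of the wider imprinted domain that lie outside the interval were tested for 11 of 14 names (Snrpn, Snurf, Ube3a, Atp10a and others). Of their 20 tested probes 11 were higher and 9 lower in the knockout, with a median of 0.019, and none passed the adjusted threshold in limma. Snrpn differed by 0.26 (SE 0.14) and 0.18 (SE 0.13) over 2 probes, and Atp10a, with the only unadjusted p under 0.05, by -0.14 (SE 0.059).

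Across the 22 arrays, with the genotype means removed, the 6 pairs of Ndn, Magel2, Mkrn3 and Peg12 were set against each other. Magel2 and Peg12 had a Pearson r of 0.55, Mkrn3 and Peg12 0.51, and Magel2 and Mkrn3 0.48, each with an adjusted permutation p of 0.037 (two-sided, 6 pairs, raw p of 0.0076, 0.015 and 0.019). The Spearman rho was 0.28, 0.53 and 0.43, with adjusted permutation p of 0.40, 0.071 and 0.14 (raw 0.20, 0.012 and 0.047). Without the 2 arrays farthest from the median of the first gene, r was 0.14, 0.40 and 0.24, so the relations of Magel2 rest on those arrays, wild-type 1 and knockout 12. With slide means removed too, r was 0.46, 0.38 and 0.45. Within wild type (n = 9) r was 0.62, 0.77 and 0.54, and within the knockouts (n = 13) it was 0.45, 0.079 and 0.31, given as a description without a test. Ndn with Magel2 gave an r of 0.42 (raw permutation p 0.059, adjusted 0.088; rho -0.14, raw 0.54, adjusted 0.81), with Mkrn3 0.051 (raw 0.82, adjusted 0.82; rho -0.025, raw 0.91, adjusted 0.91) and with Peg12 0.15 (raw 0.50, adjusted 0.60; rho -0.055, raw 0.81, adjusted 0.91).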
